A study of Mus musculus with 19 samples.

Results

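The myogenic regulatory factors Myod1, Myf5, Myf6 and Myog, the paired-box factors Pax3 and Pax7 and the inhibitors Id1, Id2 and Id3 were followed in mouse C2C12 cells and soleus muscle. They were chosen by name: every probe that the array files assign to 1 of these 9 genes was taken, which gave 13 of the 41174 probes and 9 of the 27793 gene names on the array. RNA was measured on 19 1-colour Agilent arrays, 1 per sample, in a study of what raised class IIa histone deacetylases do to muscle cells and of muscle in diabetes. The cells were C2C12 myoblasts, a mouse muscle line, stably transfected either with empty plasmids (6 arrays, labelled WT) or with plasmids for HDAC4 and HDAC5 (6 arrays, labelled HDAC4&5). Cells of both groups carried hygromycin and geneticin resistance, were selected at 500 µg/mL and were harvested 48 h after seeding, at 80% confluency, so they were measured as myoblasts and not after induced differentiation. The muscles were soleus from male 12-week-old mice of C57BL6J background after a 5 h fast, either db -/+ littermates (3 arrays, labelled Con) or obese and diabetic db +/+ mice (4 arrays, labelled db). The labels list each array as a separate mouse or cell sample. The methods name fewer biological replicates per group than there are arrays in the cell groups and in db. Which cell arrays share a culture or a transfection is not given in the sources used here, so n counts arrays, the p-values for the cells measure a spread that may be technical, and the line and the construct cannot be told apart.

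Myod1 and Myf5 commit cells to the muscle lineage, Myog drives the step from dividing myoblast to differentiating myocyte, and Myf6 (MRF4) is the member most abundant in adult fibres. All are basic helix-loop-helix (bHLH) proteins that pair with E proteins and bind the E-box CANNTG in muscle genes. Id proteins lack the basic region, capture E proteins and so keep the pairs off DNA, while Pax3 and Pax7 mark the precursors and satellite cells upstream of the myogenic factors.

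The start of the Myog gene is a known place of action for these factors, so its promoter is shown beside those of Id2 and Id3, the inhibitors whose promoters were at hand. The sequences are the 250 bases before the RefSeq start, on GRCm38.p6, 5′ to 3′ in the sense of the gene, with each CANNTG in capitals.
Myog, chr1:134289754-134290003, plus strand: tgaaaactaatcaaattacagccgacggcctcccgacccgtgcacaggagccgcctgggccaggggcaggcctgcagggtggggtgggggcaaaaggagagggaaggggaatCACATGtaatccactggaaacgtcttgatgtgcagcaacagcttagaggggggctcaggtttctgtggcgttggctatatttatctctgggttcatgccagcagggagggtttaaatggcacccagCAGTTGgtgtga
Id2, chr12:25096093-25096342, minus strand: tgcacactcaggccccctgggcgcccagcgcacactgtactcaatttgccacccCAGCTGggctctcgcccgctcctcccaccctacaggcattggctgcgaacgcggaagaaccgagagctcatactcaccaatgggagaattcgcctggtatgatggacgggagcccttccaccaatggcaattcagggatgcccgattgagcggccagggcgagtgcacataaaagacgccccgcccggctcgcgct
Id3, chr4:136143572-136143821, plus strand: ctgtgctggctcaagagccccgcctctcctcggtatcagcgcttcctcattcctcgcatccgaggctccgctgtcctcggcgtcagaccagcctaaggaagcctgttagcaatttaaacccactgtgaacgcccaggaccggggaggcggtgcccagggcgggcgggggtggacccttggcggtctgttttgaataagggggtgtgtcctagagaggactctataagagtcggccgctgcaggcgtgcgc
The Myog window held 2 CANNTG, the Id2 window 1, in the form CAGCTG, and the Id3 window 0. CANNTG reads the same on both strands, includes every CAGCTG and was found in 66.2% of the 32851 mouse promoters of this length, and 31.8% held at least 2. CAGCTG was found in 13% of them. GGCGCC, the core of the elements through which BMP signals reach Id genes, was present 1 time in the Id2 window, in 0 copies in the Myog and Id3 windows and in 9.59% of all promoters. Among 5 members matched in the promoter table, the other two, Myf5 and Pax7, held neither motif. Myod1, Myf6, Pax3 and Id1 were not matched.

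What the array read was a 60-base probe in each transcript, and the probes for Id2 and Id3 that cross a splice junction are shown because they read joined exons. On mm9, the build of the array files, the bases of the Id2 probe A_51_P219074 spanned 348 bases of the minus strand (chr12:25780183-25780530), and those of the Id3 probe A_51_P380178 spanned 175 bases of the plus strand (chr4:135700075-135700249).
Id2 A_51_P219074: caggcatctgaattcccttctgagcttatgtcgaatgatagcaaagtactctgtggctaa
Id3 A_51_P380178: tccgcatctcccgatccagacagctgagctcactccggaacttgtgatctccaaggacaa
The other probes lay in 1 stretch each, at chr7:53633956-53634015 for Myod1, chr1:136188874-136188933 for Myog, chr10:106930237-106930296 for Myf6, chr10:106919974-106920033 for Myf5 and chr4:139294364-139294423 for Pax7. Pax3 had probes at chr1:78099476-78099535 and chr1:78180183-78180242. The Id1 probes, A_51_P385786 at chr2:152563036-152563095 and A_52_P533809 at chr2:152563046-152563105, shared 50 of their 60 bases and are not independent readings. Id2 had 2 further probes, A_52_P240542 at chr12:25778904-25778963 and A_52_P94071 at chr12:25780080-25780139, the second taken from a cDNA clone.

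A level below is the log2 of the processed spot intensity minus the log2 of the 75th percentile of its array, so 0 is that percentile and 1 unit is a factor of 2. A difference is between group means of these levels, and levels are compared only within a probe. The scanner software marked 49.7% to 57.5% of spots as well above background on the cell arrays and 46.8% to 54.8% on the muscle arrays. The mouse Hdac5 probe was higher in HDAC4&5 cells (mean level 3.60 against 2.19 in WT, log2 difference 1.42, SE 0.27, adjusted p = 0.00039), and the mouse Hdac4 probe differed by -0.05 (adjusted p = 0.365, limma with Benjamini-Hochberg adjustment). The plasmids carried human sequences, and whether the mouse probes read them was not tested. The WT cells held 4 of the 5 myoblast markers (Myod1, Des, Cdh15, Itga7) well above background on every array, and Myf5 on none. The soleus arrays held all 10 slow muscle markers.

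Myod1 and Myog, abundant in WT cells, were near or under the background in HDAC4&5 cells. Myf6 was also lower, and Id1, Id2 and Id3 fell by 2.21 to 3.46 times at the probes where the groups did not overlap. Of the 13 probes, 9 for 6 genes were tested, having been measured above background on each array of WT, of HDAC4&5 or of both. All 9 were lower in HDAC4&5 cells at an adjusted p under 0.05 and 8 did not overlap between groups, with a median log2 difference of -1.75. The background is high here: of all 21476 probes tested, 68.3% passed, 31.8% as lower and 36.5% as higher, and 25.0% were lower and 27.4% higher with no overlap, with a median difference of 0.05. Myod1, Myog and Myf6 entered the test only through the WT arrays, so part of their difference comes with the filter.

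Myod1, the factor that starts the muscle programme, had a level of 2.52 at the lowest, 2.69 at the median and 2.90 at the highest of 6 WT arrays. In HDAC4&5 cells the same values were -6.60, -6.00 and -5.63, and no array was well above background. The groups lay far apart, with the lowest WT array above every HDAC4&5 array. The mean level was 2.70 ± 0.13 (SD, n = 6) in WT and -6.04 ± 0.35 (SD, n = 6) in HDAC4&5, a fitted log2 difference of -8.74 (95% interval -9.05 to -8.43, adjusted p = 2.24e-14, limma). Taken against the lowest signal that was well above background on each HDAC4&5 array, Myod1 was at least 261-fold lower. The probe was spotted 10 times per array: all 60 WT spots were well above background, against 8 of 60 in HDAC4&5 cells.

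Myog, which carries myoblasts into differentiation, was at 4.25 at the lowest, 4.36 at the median and 4.51 at the highest WT array. In HDAC4&5 cells it was at -5.65, -5.38 and -4.74. It was well above background on 3 of the 6 HDAC4&5 arrays, and all 6 lay far below the WT arrays. The mean level fell from 4.38 ± 0.09 to -5.29 ± 0.38 (SD, n = 6 each), a log2 difference of -9.67 (95% interval -9.99 to -9.35, adjusted p = 1.29e-14, limma). Near background the size depends on how background is taken off: with a normexp correction the differences were -5.52 for Myod1 and -7.17 for Myog.

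Myf6, the factor of mature fibres, was low in WT cells, at -3.69, -3.53 and -3.28 for the lowest, median and highest array. In HDAC4&5 cells it was at -6.49, -6.02 and -5.64, and on no array well above background. The groups did not overlap, and Myf6 was at least 3.67-fold lower, with a fitted difference of -2.56 (SE 0.15, adjusted p = 5.97e-09, limma). This call was lost with the normexp correction, where the difference was -0.19 (adjusted p = 0.628).

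Myf5, the other determination factor, was not well above background on any of the 19 arrays. Its levels ran from -8.23 to -7.45 in WT and from -8.08 to -6.68 in HDAC4&5 cells, which overlapped. Pax3, the paired-box gene of the embryonic precursors, was likewise unmeasured at A_51_P315734 (-8.14 to -7.16 in WT, -8.07 to -6.61 in HDAC4&5), and at A_52_P169747 it was well above background on WT 3 (-3.71) and no other cell array. Pax7, the marker of satellite cells, was not well above background on any cell array (-6.36 to -5.80 in WT, -7.75 to -5.66 in HDAC4&5). For these 3 genes a change in the cells was not detectable at this signal.

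**Figure D1:**
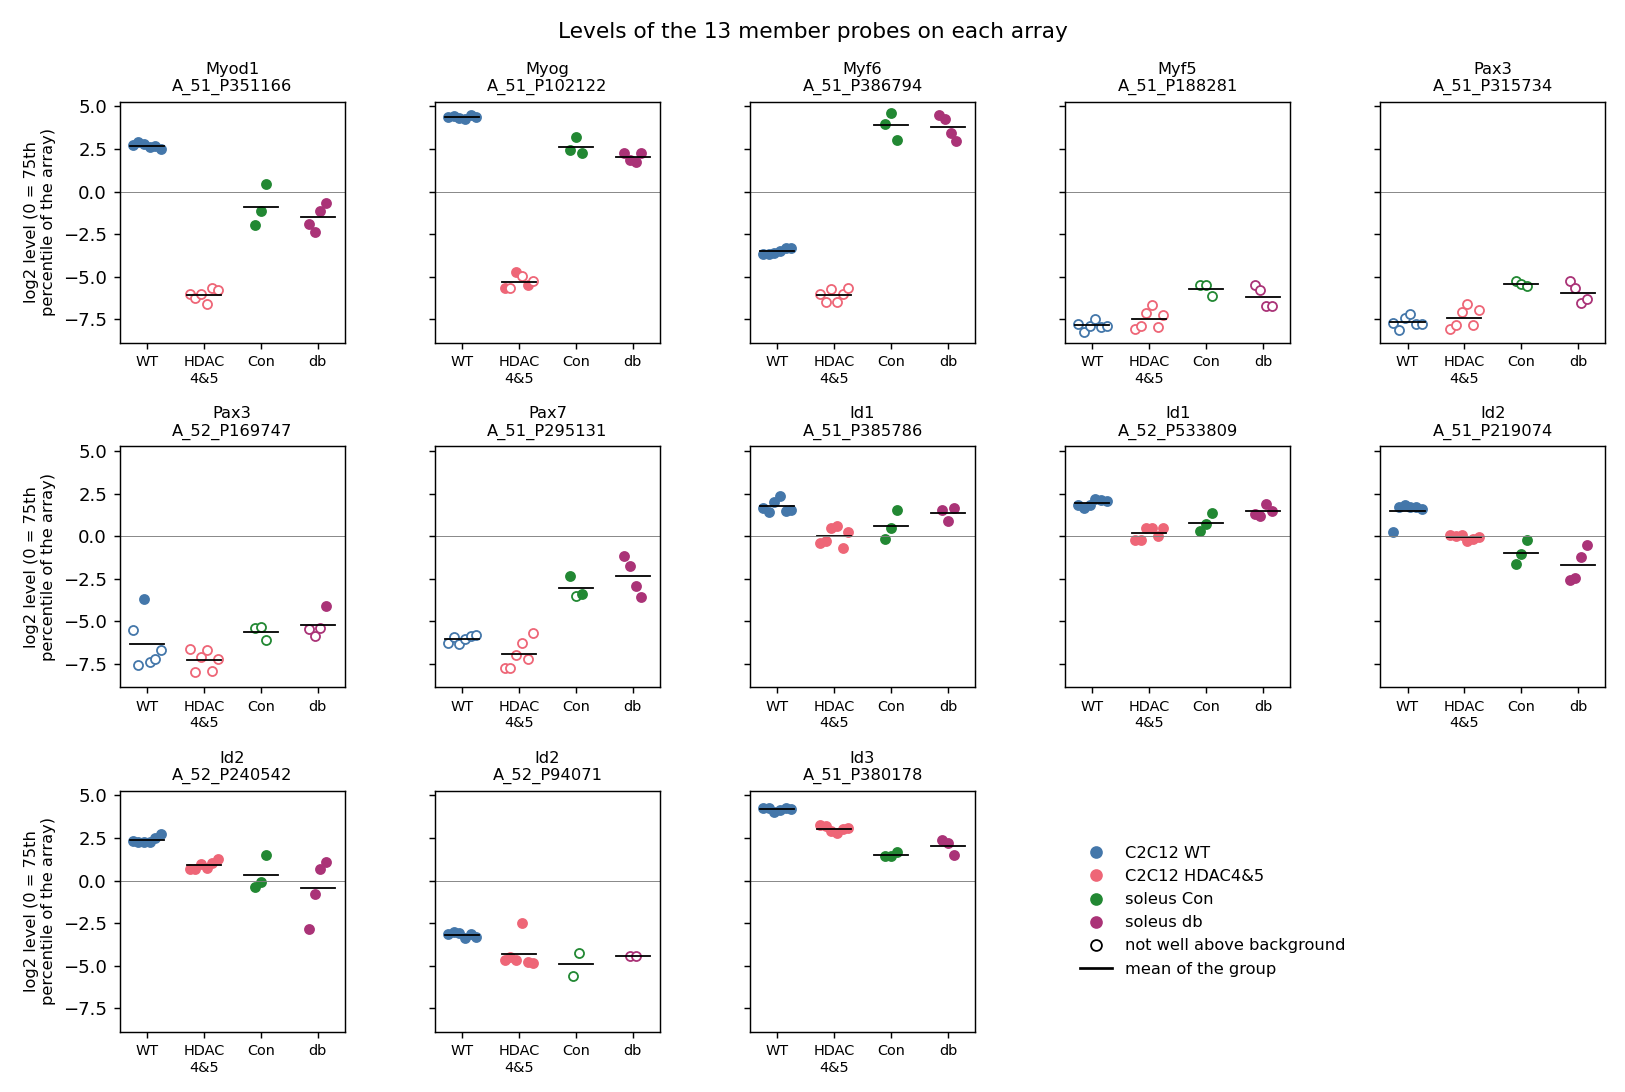
Level of each member probe on each array (vertical axis, log2 relative to the array's 75th percentile) in the 4 groups (horizontal axis), with filled points well above background, open points not, and a line at the group mean. Myod1 and Myog sat at 2.52 or more in every WT array and at -4.74 or less in every HDAC4&5 array, while the db and Con points overlapped at every probe.

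The Id inhibitors fell as well, by less. Id1 at A_52_P533809 was at 1.64, 1.97 and 2.21 for the lowest, median and highest WT array, and at -0.23, 0.23 and 0.49 in HDAC4&5 cells. No HDAC4&5 array reached the lowest WT array. The log2 difference was -1.79 (SE 0.16, 95% interval -2.13 to -1.45, adjusted p = 3.06e-07, limma), a 3.46-fold fall. The overlapping Id1 probe A_51_P385786 gave -1.75 (SE 0.24, adjusted p = 2.11e-05).

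Id2, which is abundant in many dividing cells, was at 2.27, 2.30 and 2.71 in WT and at 0.67, 0.88 and 1.27 in HDAC4&5 cells at A_52_P240542, again lowest, median and highest. The groups did not overlap. The difference was -1.49 (SE 0.11, adjusted p = 8.61e-08, limma), or 2.80-fold. At A_51_P219074, the junction probe printed above, the WT levels were 0.22, 1.69 and 1.85 and the HDAC4&5 levels -0.28, -0.04 and 0.09. The lowest value was WT 1, which stood near the HDAC4&5 arrays but did not overlap them, and the difference was -1.52 (SE 0.23, adjusted p = 7.02e-05). The dimmer clone-derived probe A_52_P94071 ran from -3.38 to -3.02 in WT and from -4.83 to -2.48 in HDAC4&5 cells. Here HDAC4&5 4 lay above all WT arrays and the other HDAC4&5 arrays below them, so the groups overlapped. Its difference of -1.12 (adjusted p = 0.0101) was -0.20 with the normexp correction (adjusted p = 0.597), -0.94 without slide 1 (adjusted p = 0.136) and -0.90 without slide 3 (adjusted p = 0.117), none of which passed in limma.

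Id3, at the junction probe printed above, was at 4.01, 4.23 and 4.27 in WT and 2.80, 3.05 and 3.29 in HDAC4&5 cells. The spread within each group was small and the groups did not overlap. The difference of -1.14 (SE 0.08, 95% interval -1.33 to -0.96, adjusted p = 5.37e-08, limma) was the smallest of the Id genes at their brightest probes, 2.21-fold. For each of the 8 probes with no overlap, the exact permutation test, two-sided over 6 against 6 arrays, gave p = 0.00216, the smallest it can give.

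**Figure D2:**
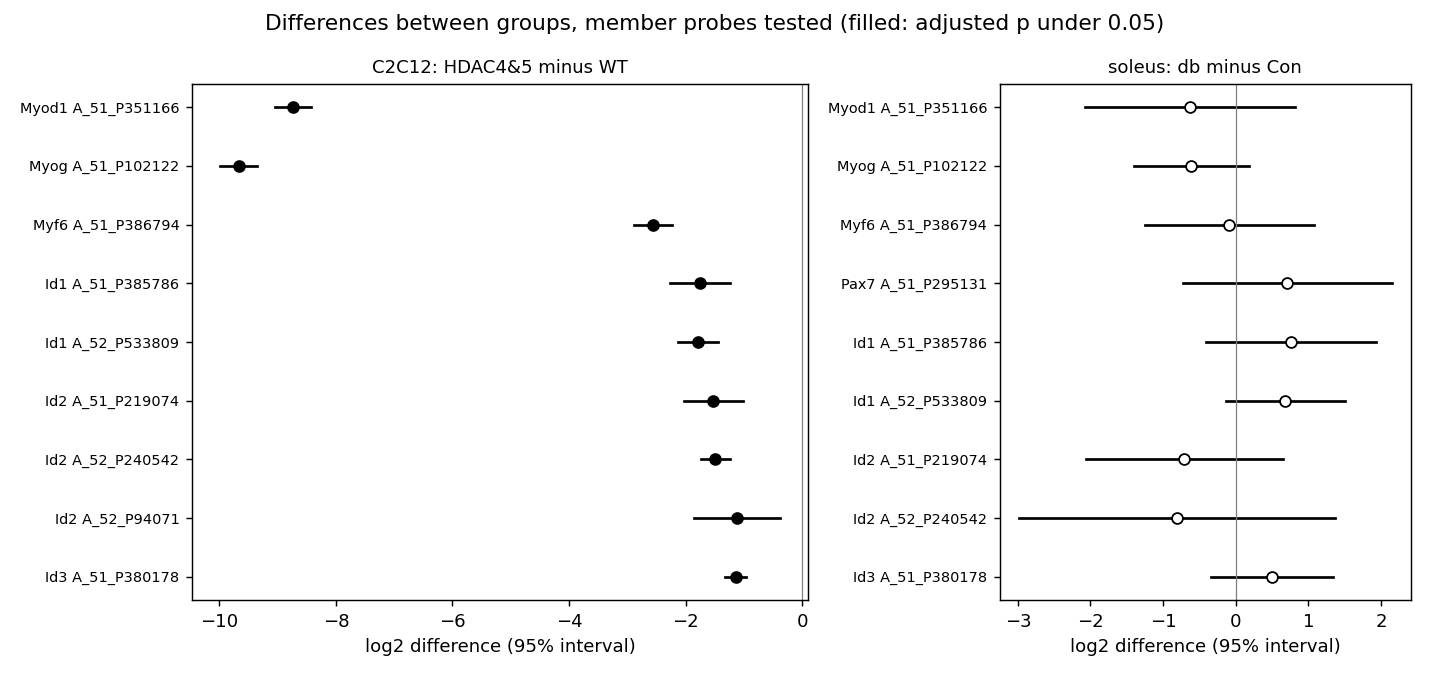
Log2 difference between groups (horizontal axis) with its 95% interval for each tested member probe, HDAC4&5 minus WT in cells and db minus Con in soleus, filled where the adjusted p was under 0.05. The 9 cell differences lie below 0, from -9.67 for Myog to -1.12 for 1 Id2 probe, and all 9 soleus intervals cross 0.

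The cell arrays lay on 3 slides that each held 2 WT and 2 HDAC4&5 arrays, so the differences could be read within each slide. All 9 were below 0 on all 3 slides. Myod1 differed by -8.95, -8.99 and -8.28 and Myog by -10.06, -9.14 and -9.82 on slides 1, 2 and 3. Id3 differed by -1.02, -1.22 and -1.19, and Id1 at A_52_P533809 by -1.97, -1.54 and -1.86. For Myod1 and Myog these values are read against an HDAC4&5 level at or near background on every slide. The weakest were Id2 at A_51_P219074 on slide 1 (-0.94), the slide of WT 1, and Id2 at A_52_P94071 on slide 2 (-0.32), the slide of HDAC4&5 4.

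**Figure D3:**
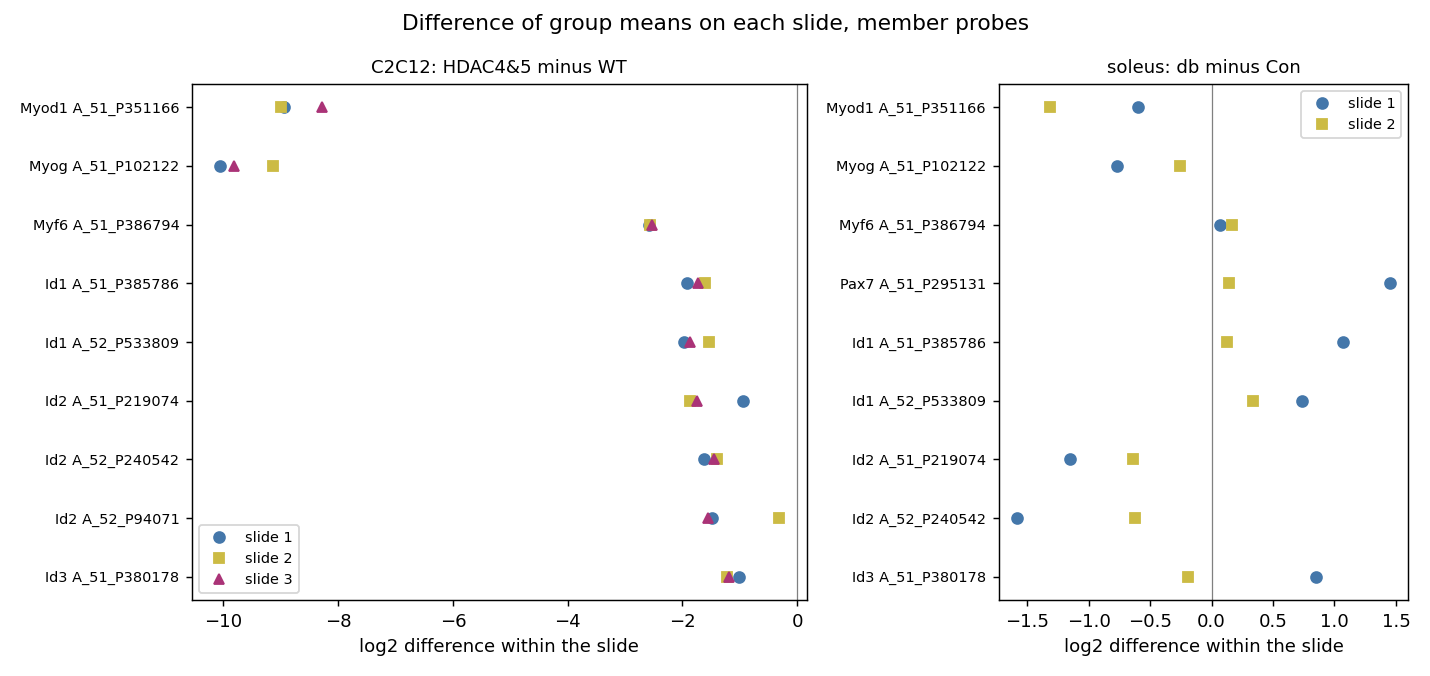
Difference of group means on each slide (horizontal axis, log2) for the tested member probes, 1 marker per slide. In cells all markers lie below 0 on slides 1 to 3, while in soleus the 2 slides lie on opposite sides of 0 for Id3 (0.85 and -0.19).

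Other myoblast and mesenchymal genes moved beside the members in the cells. As a description that adds across probes, the summed linear level of the 5 myoblast markers was 91.7 to 188 in WT and 2.08 to 2.27 in HDAC4&5 cells. The members Myod1 and Myf5 are part of this sum, so it does not stand apart from them. Cdh15, at a mean level of 5.98 in WT, was well above background on 5 of 6 WT arrays, so 1 WT sum may lack it. Des differed by -8.45 (SE 0.19, adjusted p = 3.67e-13) and Itga7 by -3.94 (SE 0.06, adjusted p = 1.39e-14, limma). Of the 5 fibroblast markers, the sum was 4.89 to 5.77 in WT and 21.6 to 23.4 in HDAC4&5 cells, most of it from the collagen gene Col1a1 at 3.34 (SE 0.05, adjusted p = 1.55e-14). The list did not move one way: Pdgfra was higher by 2.18 and the proteoglycan gene Dcn lower (difference -1.32, SE 0.07, adjusted p = 1.13e-09), and Lum and Thy1 were well above background on no cell array. In bulk RNA, fewer cells of a type and less RNA per cell cannot be told apart, and the part of a change in cell makeup in these results was not tested.

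Genes that the myogenic factors are known to switch on fell with them. Of 32 listed targets, 31 had a probe and were tested, 31 were lower and 0 higher, with a median log2 difference of -5.70 beside 0.05 for all probes (-5.29 with the 7 genes under background in HDAC4&5 cells set at their bound). Of all probes tested 31.8% were lower and 36.5% higher. The largest fitted falls were Myl1, a myosin light chain, at -11.12 (SE 0.53, adjusted p = 6.57e-10), and Jsrp1, a protein of the calcium release complex, at -9.34 (SE 0.49, adjusted p = 1.65e-09, limma). Myl1 was well above background on 2 and Jsrp1 on 3 of the 6 HDAC4&5 arrays, so these sizes are read largely against background. With a stricter filter, well above background in both groups, 16 were tested and 16 were lower. Targets of the factors and the markers above overlap, since Des and Cdh15 belong to both.

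The partners of the myogenic factors moved less as a group. Of 25 partners and cofactors, 21 were tested, 13 were lower and 4 higher, with a median of -0.50. The shares over all probes tested were 31.8% lower and 36.5% higher. Mef2c, the MADS-box factor that acts with Myog, was under background in HDAC4&5 cells and at least 8.84-fold lower (adjusted p = 2.47e-08), and Eya4, of the eyes-absent cofactors, fell by 3.90 (SE 0.08, adjusted p = 1.1e-13). The homeobox cofactor Meis1 rose by 0.77 (SE 0.10, adjusted p = 1.37e-05) and the E protein gene Tcf12, whose product pairs with both MyoD and Id proteins, by 0.57 (SE 0.11, adjusted p = 0.000399, limma). The other E protein genes of the list were lower. Tcf3 differed by -0.72 (SE 0.06, adjusted p = 3.1e-07) and Tcf4 by -0.59 (SE 0.06, adjusted p = 1.15e-06, limma). The rises were thus small beside the falls, and the number of partners above background was lower in HDAC4&5 cells (19 on every array, 21 in WT).

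Most of the satellite cell genes tested were lower, though less so under a stricter filter. Of 26 listed, 24 were tested, 15 were lower and 4 higher, with a median of -2.42 (-2.12 with 2 genes at their bound). For all probes tested the shares were 31.8% lower and 36.5% higher. Heyl, a Notch-driven repressor, was under background in HDAC4&5 cells and at least 297-fold lower (adjusted p = 1.52e-11), and Cdh15, the M-cadherin of myoblasts, fell by 5.70 (SE 0.21, adjusted p = 1.75e-10). The Notch ligands Jag1 and Dll1 rose by 2.13 (SE 0.13, adjusted p = 6.99e-09) and 1.47 (SE 0.07, adjusted p = 5.47e-10, limma). Both ligands were thus higher in the cells in which Heyl was under background, while the Notch receptor genes of the list were lower. Notch1 differed by -5.01 (adjusted p = 1.66e-13), Notch3 by -3.86 (adjusted p = 6.11e-14) and Notch2 by -0.78 (adjusted p = 3.63e-07, limma). Notch1 was well above background on 2 of the 6 HDAC4&5 arrays. Notch signalling was not tested. With the stricter filter 16 were tested, 8 were lower and 4 higher, with a median of -0.48. The genes this filter dropped had entered only through the WT arrays, so part of the fall comes with the filter.

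Other inhibitors of bHLH factors went both ways. Of 20 listed, 14 were tested, 7 were lower and 6 higher, with a median of -0.09. Among all probes tested 31.8% were lower and 36.5% higher. The lower ones were led by Heyl, again, and by Hey1, another Notch target, which fell by 4.19 (SE 0.08, adjusted p = 8.67e-14). Twist2, a bHLH protein that opposes MyoD, rose by 1.19 (SE 0.10, adjusted p = 2.18e-07) and the E-box repressor Zeb1 by 0.65 (SE 0.08, adjusted p = 1.25e-05, limma). Some inhibitors of this list were thus higher in the cells in which Id1, Id2 and Id3 were lower. Under quantile normalization 4 rather than 6 were higher, and in the matrix the authors deposited 2.

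BMP and SMAD genes, which lie upstream of Id transcription, were also mixed. Of 33 listed, 23 were tested, 7 were lower and 6 higher, with a median of -0.13. Over all probes tested 31.8% were lower and 36.5% higher, so these counts do not set the list apart. The BMP co-receptor Hjv was under background in HDAC4&5 cells and at least 20.1-fold lower (adjusted p = 1.8e-10), and Smad9, a transducer, at least 1.56-fold lower (adjusted p = 5.99e-05). The decoy receptor Bambi rose by 2.30 (SE 0.08, adjusted p = 2.92e-11) and the inhibitory Smad6 by 1.53 (SE 0.08, adjusted p = 9.71e-10, limma). Both of the largest rises were inhibitors of the pathway, and the inhibitory Smad7 also rose (1.25, adjusted p = 0.00405). The antagonists Chrd (-0.76, adjusted p = 0.00802) and Fst (at least 1.41-fold, adjusted p = 0.000172) were lower. The receptor gene Acvr2b (1.11, adjusted p = 1.14e-05) and the co-receptor gene Rgma (1.06, adjusted p = 1.94e-09, limma) were higher. BMP signalling was not tested. With the normexp correction 4 were lower and 5 higher.

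**Figure D4:**
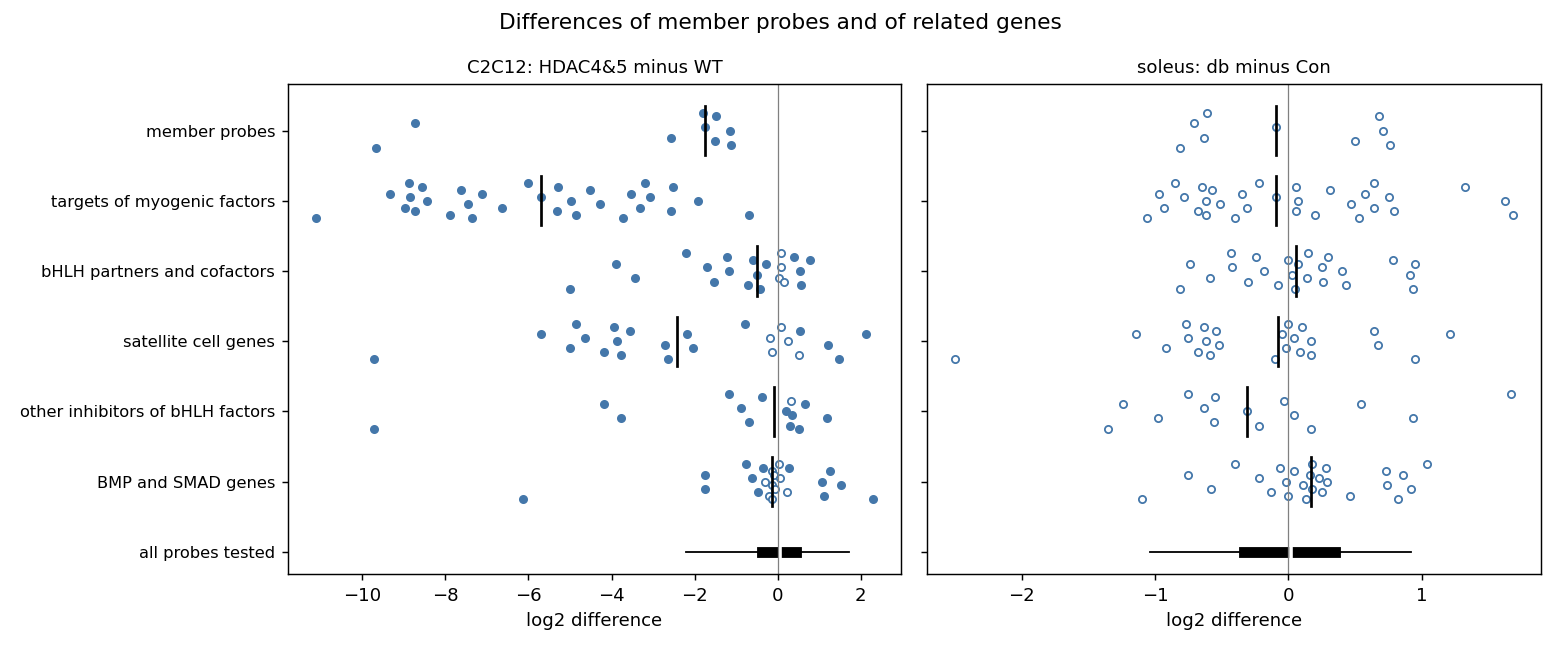
Log2 difference (horizontal axis) of the tested member probes and of each gene in 5 related lists, filled where the adjusted p was under 0.05, with a line at the median, and the bar for all probes tested from the 25th to the 75th percentile and its line from the 5th to the 95th. In cells the targets have a median of -5.70 and the members -1.75, and in soleus no point is filled.

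In soleus no member passed the test between db and Con. Of the 13 probes, 9 for 7 genes were tested, 0 passed the adjusted p in limma, 0 had an unadjusted p under 0.05 and 0 were free of overlap, with a median log2 difference of -0.09. Over all 18538 probes tested, 0.00539% passed (1 probe) and 6.43% had an unadjusted p under 0.05, while 4.55% were lower and 5.83% higher with no overlap. With 3 against 4 arrays the exact permutation test cannot give a p below 0.0571. Con and db arrays shared 2 slides, and with the replicate number or the slide as a block 0 probes passed the adjusted p, while 5 and 4 of the 9 had an unadjusted p under 0.05, beside 15.5% and 17.9% of all probes. Id2 at both probes and Id1 at A_52_P533809 were among these in both fits.

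Myod1 was at -1.94, -1.11 and 0.42 in Con 1 to 3 and at -1.91, -2.34, -1.15 and -0.64 in db 1 to 4. The Con arrays spread over more than 2 units, and their range took in all but db 2. The difference was -0.63 (95% interval -2.07 to 0.81, adjusted p = 0.907, limma) and 0.02 without Con 3. Between mice of the same number, which are different animals that share a slide, it was 0.03, -1.23 and -1.56. Myog was at 2.45, 3.21 and 2.27 in Con and at 2.28, 1.84, 1.73 and 2.29 in db. Here 2 db arrays lay within the Con range and 2 below it, and the difference was -0.61 (95% interval -1.40 to 0.18, adjusted p = 0.845, limma), -0.33 without Con 2 and -0.17, -1.37 and -0.55 between same-numbered mice. Myf6 was at 3.98, 4.63 and 3.06 in Con and at 4.49, 4.25, 3.47 and 2.98 in db, a difference of -0.09 (95% interval -1.25 to 1.08, adjusted p = 0.987, limma). Between same-numbered mice Myf6 differed by 0.52, -0.37 and 0.42, and the sign of its difference turned under several other settings. The intervals leave room for changes of over 2 times in all 3 genes.

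Pax7 was measured in muscle, at -2.32, -3.50 and -3.40 in Con 1 to 3, with Con 2 not well above background, and at -1.15, -1.77, -2.93 and -3.60 in db 1 to 4. The highest arrays were db 1 and db 2, and the lowest was also a db array. The difference was 0.71 (95% interval -0.72 to 2.15, adjusted p = 0.902, limma), and 0.31 without db 1. Between same-numbered mice Pax7 was higher in db by 1.16, 1.74 and 0.47. The number links mice only through the slide, so these are not paired replicates. Myf5 and the Pax3 probe A_51_P315734 were under background on all 7 muscle arrays, at -6.72 to -5.48 and -6.52 to -5.23, and Pax3 at A_52_P169747 was above it on db 4 alone (-4.10).

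Among the inhibitors, Id1 at A_52_P533809 was at 0.29, 0.72 and 1.36 in Con and at 1.30, 1.18, 1.91 and 1.49 in db. Con 3 lay among the db arrays and the other Con arrays below them. The difference was 0.68 (95% interval -0.14 to 1.5, adjusted p = 0.816, limma; exact permutation p = 0.171, two-sided), and db was higher than Con by 1.01, 0.46 and 0.56 between mice of the same number. Id1 at A_51_P385786 gave 0.76 (95% interval -0.41 to 1.93, adjusted p = 0.878; 0.38 without Con 1 and 1.21 without Con 3), with db 3 left out because its spot was marked as an outlier. Id3, also without db 3, was at 1.47, 1.42 and 1.68 in Con and at 2.40, 2.19 and 1.5 in db. Both db arrays of slide 1 were above Con and db 4 within it, for a difference of 0.50 (95% interval -0.34 to 1.34, adjusted p = 0.895, limma), 0.85 on slide 1 and -0.19 on slide 2. Id2 was at -1.65, -1.05 and -0.22 in Con and at -2.56, -2.43, -1.22 and -0.50 in db at A_51_P219074, where 2 db arrays lay below all Con arrays. The difference was -0.71 (95% interval -2.06 to 0.65, adjusted p = 0.901), -0.33 without Con 3, and -0.91, -1.38 and -1 between same-numbered mice. At A_52_P240542 it was -0.81 (95% interval -2.99 to 1.37, adjusted p = 0.931, limma), and -0.02 without db 1, the lowest array. Whether the effect on any member differed between the cells and the muscle was not tested.

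The related lists gave 0 calls each in soleus, at an adjusted p in limma. At an unadjusted p under 0.05 there were 3 of 31 targets, 1 of 24 partners and 2 of 15 inhibitors. There were also 3 of 26 BMP and SMAD genes and 3 of 24 satellite cell genes, beside 6.43% of all probes. The medians of the lists, in this order, were -0.09, 0.06, -0.31, 0.17 and -0.07, beside 0.02 for all probes. With the slide as a block these counts were 7, 6, 5, 6 and 8, beside 17.9% of all probes, still with 0 calls at the adjusted p. Among markers of other cells in the muscle, the summed level of 8 endothelial markers was 64.1 to 71.7 in Con and 29.7 to 39.1 in db. All 8 were well above background on every measured array, 5 of the 8 had an unadjusted p under 0.05 in limma and 0 passed the adjusted p. Flt1, at a mean level of 3.38 in db, was well above background on 3 of 4 db arrays, so 1 db sum may lack it. The 6 adipocyte markers summed to 262 to 453 in Con and 206 to 277 in db, which overlap, and they lay on both sides of 0, with a median difference of 0.15 and 0 past the adjusted p. Id1 and Id3 are expressed in endothelium as well as in muscle, and the part of these cells in their values was not tested.

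Between the control groups, the myogenic factors differed in which one was high. Against WT cells, soleus Con had a higher Myf6 and a lower Myod1, Myog, Id1, Id2 and Id3. Of 9 probes tested, 1 was higher and 8 were lower at an adjusted p under 0.05, and 8 did not overlap. The background was 74.2% passing of 22636 probes, 39.9% lower and 34.4% higher, with 36.8% lower and 32.3% higher without overlap. Cells and muscle lay on different slides and their RNA was extracted in different ways, so tissue, slide and extraction cannot be told apart. Myf6 was 167-fold higher in muscle (difference 7.38, SE 0.29, adjusted p = 4.93e-09), whereas Myod1 was 11.9-fold lower (-3.57, SE 0.40, adjusted p = 1.67e-05) and Myog 3.33-fold lower (-1.74, SE 0.20, adjusted p = 2e-05, limma). Pax7, under background in cells, was measured on 2 of 3 Con arrays and was not tested between them. Id3 was 6.34-fold lower in muscle (-2.66, SE 0.13, adjusted p = 2.72e-08), Id2 at A_52_P240542 differed by -2.04 (SE 0.36, adjusted p = 0.000433) and Id1 at A_52_P533809 by -1.17 (SE 0.23, adjusted p = 0.00108). At Id1 A_51_P385786 the difference was -1.14 (adjusted p = 0.0116), and -0.75 without Con 1 (adjusted p = 0.0606). At Id2 A_52_P94071, where Con 3 was left out as an outlier spot and the other two Con arrays were under background, the fitted difference of -1.72 turned to 0.82 with the normexp correction and to 0.30 with outlier spots kept.

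Read across the 4 groups from high to low, the order of mean levels was WT, Con, db, HDAC4&5 for Myod1 and Myog, with Con and db overlapping. For Myf6 it was Con, db, WT, HDAC4&5, where Con and db again overlapped and the cell groups lay far below. Id3 ran WT, HDAC4&5, db, Con, and Id2 at A_52_P240542 ran WT, HDAC4&5, Con, db. In both, WT lay above HDAC4&5 in every array and Con overlapped db, and at the Id2 probe HDAC4&5 overlapped Con as well. Id1 at A_52_P533809 ran WT, db, Con, HDAC4&5, with db overlapping WT and Con overlapping HDAC4&5. HDAC4&5 cells had the lowest mean for Myod1, Myog, Myf6 and Id1.

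Over the 19 arrays, and among 19216 probes with no missing value, genes whose levels followed Myod1 most closely included Enho and Errfi1 (Pearson r 0.989 and 0.986). For Myog they were Ckb, Tppp3 and Syt7 (0.995, 0.992 and 0.991), and for Myf6 Chchd10, Sln and Yipf7 (0.997, 0.997 and 0.996). Pax7 went with Sncg, Pdk2 and Paip2 (0.973, 0.973 and 0.972). Id2 went with Tesk2, Sowahc and Rmi1 (0.978, 0.970 and 0.969), and Id1 with Atp6v0a2, Cobl and Lphn3 (0.963, 0.940 and 0.935). These are descriptions: the 19 points are 4 groups on shared slides whose levels lie apart at many probes. Id3, with a missing array, was not compared.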

How the data were processed

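RNA of 12 cell samples and 7 muscles was hybridised from 100 ng each. The authors deposited 1 scanner file per array from Agilent Feature Extraction 9.5.1.1, whose processed intensity is background-subtracted and not scaled between arrays. They also deposited a matrix holding a ratio of that intensity to a constant per array, used as an alternative. Its db columns did not match the db scanner files of the same number, so it was read by group.

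Control and outlier spots were left out, intensities were put on a log2 scale minus the 75th percentile of each array, and spots of a probe were averaged. The deposited mm9 positions were kept, and 27198 probes were named through RefSeq. A probe was tested if well above background, on most of its spots, on every array of at least 1 group. limma 3.58.1 under R 4.3.3 gave the tests, with Benjamini-Hochberg adjustment over all probes at 0.05, and single probes by exact permutation. The steps were checked on simulated data. A bound sets the brighter mean against the lowest signal well above background. All 13 member probes are named, and from each related list the 2 largest rises and falls in cells past the adjusted p, plus the 3 gene names that correlate best with each member's brightest probe, of which 1 is not reported here. Further genes of the lists are named where they bear on a statement. The brightest probe stood for a listed gene. The members and lists were chosen with earlier results of these data known. Figures were drawn with matplotlib 3.10.9 in Python 3.11.15.

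Same-numbered samples shared a slide, and their deviations correlated at 0.228 to 0.584 over 6 cell pairs and 0.371 to 0.661 over 3 muscle pairs. Samples of other numbers on the same slide correlated at 0.202 to 0.544 in cells and 0.269 to 0.731 in muscle. The numbers were thus taken to link the samples only through the slide. Alternatives were quantile normalization, normexp with an offset of 50, other filters, outlier spots kept, 1 probe per gene, replicate or slide blocks, the methods' t-test, a fold of at least 1.5, the matrix and leaving out slides or replicates. The number of arrays limits the precision.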

Additional observations from a re-analysis of the deposited data

Results flagged for a closer look

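Of 36 groups of at least 4 arrays checked for a lone array at a member probe, 2 held one, where chance alone gives about 1 in 20 groups, or 1.8. For Id2 at A_51_P219074, WT 1 had a level of 0.22, and the nearest WT array was at 1.61. For Id2 at A_52_P94071, HDAC4&5 4 was at -2.48, and the nearest HDAC4&5 array was at -4.48. At the other bright Id2 probe, A_52_P240542, the lowest of the WT arrays was at 2.27 and the highest HDAC4&5 array at 1.27.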

How the results depend on the processing

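The count of member probes that passed was 9 in cells and 6 to 9 over 15 alternatives, all lower, with the 6 coming from settings that tested 6 probes. It was 0 in soleus in all 19 alternatives, and 9 against 6 to 12 over 13 alternatives for Con against WT. With a replicate block the counts were 9, 0 and 9, and no call among the members changed. The directions that turned were Myf6 in soleus, which was 0.07 with normexp, 0.19 with the replicate block, 0.11 with the slide block, 0.16 in the matrix and -0.50 to 0.28 with 1 replicate left out, Myod1 in soleus (-1.16 to 0.02 with 1 left out), and Id2 A_52_P94071 for Con against WT, which was 0.82 with normexp and 0.30 with outlier spots kept. With 1 array left out the other soleus differences kept their sign, at -0.80 to -0.33 for Myog, 0.31 to 1.12 for Pax7, 0.38 to 1.21 and 0.43 to 0.96 for Id1, -1.10 to -0.33 and -1.32 to -0.02 for Id2 and 0.32 to 0.77 for Id3. Over all probes, calls in cells were 14671, and 8028 at a fold of at least 1.5. In soleus the call of 1 probe became 32 with the slide block, 3 with quantile normalization and 1406 by the methods' t-test without adjustment (3 with it), and 0 with normexp, the stricter filter, the matrix or without Con 1, Con 2, db 2, db 3 or db 4. For Con against WT 16801 became 32617 with no filter. Of the calls in cells 53.4% were higher, and 39.4% in the matrix; for Con against WT 46.3% were higher, and 59% with normexp and 72.3% with no filter. The median of all probes moved from 0.05 to -0.09 in cells with the matrix, from 0.02 to 0.12 in soleus with quantile normalization and 0.25 with the matrix, and from -0.16 to -0.44 for Con against WT with quantile normalization. Relative to that shift, the cell differences of the members stayed below 0. Levels near background limit Myod1, Myog and Myf6 in HDAC4&5 cells, and 3 and 4 arrays limit soleus.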
